A study of Homo sapiens with 12 samples.

Results

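The genes described here are 40 genes of glycolysis and of the response to low oxygen, chosen by symbol from the 19677 genes counted in CAOV3 cells, a human cell line labelled as high-grade serous ovarian carcinoma. All 40 were listed in the count tables, and 39 passed the filter on low counts together with 12470 genes in all. BNIP3, which encodes a mitophagy receptor, had between 4 and 11 counts per library and was not tested. The question was how ovarian cancer ascites, the fluid that gathers in the abdomen in this disease, and bezafibrate, a fibrate drug that activates PPAR receptors, change transcription in these cells. The control cells were labelled DMSO, the ascites cells received 10% ovarian cancer ascites with DMSO, the bezafibrate cells received 200 uM of the drug, and the combination cells received both. Treatment lasted 16 hours by the labels of the 3 treated groups. Each group had 3 libraries, and n counts libraries throughout. All cells were wild type by label and grew in medium with 10% serum, DMSO is not named for the groups with the drug, and the labels do not say whether replicates were separate cultures or whether the fluid came from more than 1 source, so p-values measure the spread between these libraries only.

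Glycolysis turns glucose into pyruvate. Hexokinases, phosphofructokinases, aldolases and the enzymes after them carry the flow, PFKFB enzymes set the level of an activator of phosphofructokinase, and lactate dehydrogenase and the monocarboxylate carriers deal with the end product. When oxygen is low, prolyl hydroxylases (EGLN) no longer mark the HIF alpha subunits for degradation. Between them, HIF1A and EPAS1, which encodes HIF-2 alpha, then raise glucose carriers, glycolytic enzymes, VEGFA and other targets. Much of this control acts on HIF protein, which RNA counts do not measure.

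Bezafibrate changed some members of most roles. EPAS1 rose 1.62-fold, the hypoxia targets P4HA2, NDRG1, VEGFA, BNIP3L and CA12 rose, and so did the glucose carrier SLC2A1 and the lactate exporter SLC16A3. The 17 glycolytic enzymes stayed within a narrow band, with log2 fold changes from -0.06 to 0.08 for the drug averaged over cells with and without ascites. HIF1A stood at 0.01 in the same comparison. That comparison called 9 genes higher and 6 lower, the latter ANKRD37, PFKFB2, PFKFB3, GPI, PKM and LDHB. The hypoxia targets CA9, ADM, P4HA1, KDM3A and MXI1 were not called in it. Ascites left 0 of the 39 genes called in either of its own pairwise comparisons, where 0.0882% and 0.128% of all genes were called.

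The promoters of 5 of these genes are shown as examples of genes of the HIF program that did and did not pass the test. EPAS1, P4HA2 and SLC2A1 rose with the drug, and LDHA and PGK1, classical HIF targets, were not called in any comparison. Each sequence is the 250 bases before the gene's start in RefSeq on GRCh38.p14, on the gene's own strand, and capitals mark the HIF core motif, ACGTG or GCGTG, read on both strands. They lie at chr2:46297157-46297406 for EPAS1 (plus strand), chr5:132227092-132227341 for P4HA2 (minus), chr1:42958869-42959118 for SLC2A1 (minus), chr11:18394313-18394562 for LDHA (plus, the first of 2 listed starts) and chrX:78103998-78104247 for PGK1 (plus). In GENCODE 29 the EPAS1, P4HA2, SLC2A1 and PGK1 windows lie inside the outermost bounds of their genes, so other starts exist upstream, and the LDHA window overlaps the start of its gene.
EPAS1: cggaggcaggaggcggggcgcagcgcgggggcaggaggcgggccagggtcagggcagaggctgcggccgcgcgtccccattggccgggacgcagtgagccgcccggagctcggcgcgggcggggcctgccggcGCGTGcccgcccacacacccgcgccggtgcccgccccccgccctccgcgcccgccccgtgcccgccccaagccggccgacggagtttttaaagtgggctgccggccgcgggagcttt
P4HA2: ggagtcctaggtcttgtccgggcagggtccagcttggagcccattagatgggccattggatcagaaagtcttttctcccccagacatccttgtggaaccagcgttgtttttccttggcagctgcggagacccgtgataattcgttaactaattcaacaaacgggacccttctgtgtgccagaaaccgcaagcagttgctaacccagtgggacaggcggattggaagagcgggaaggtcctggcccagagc
SLC2A1: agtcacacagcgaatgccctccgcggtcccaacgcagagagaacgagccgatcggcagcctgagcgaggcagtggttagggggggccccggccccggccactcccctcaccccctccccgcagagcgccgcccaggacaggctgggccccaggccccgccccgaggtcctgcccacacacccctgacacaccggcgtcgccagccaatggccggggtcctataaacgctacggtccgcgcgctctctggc
LDHA: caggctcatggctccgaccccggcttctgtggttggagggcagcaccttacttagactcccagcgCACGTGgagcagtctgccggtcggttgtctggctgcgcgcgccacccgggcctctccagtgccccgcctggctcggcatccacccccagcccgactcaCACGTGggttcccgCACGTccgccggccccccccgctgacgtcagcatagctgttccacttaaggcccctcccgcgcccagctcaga
PGK1: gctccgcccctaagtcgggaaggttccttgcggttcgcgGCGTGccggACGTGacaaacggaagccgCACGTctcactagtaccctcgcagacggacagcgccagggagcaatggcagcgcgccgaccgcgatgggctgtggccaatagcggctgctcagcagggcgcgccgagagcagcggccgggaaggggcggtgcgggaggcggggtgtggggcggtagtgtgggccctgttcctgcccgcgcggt
The EPAS1 window holds the core motif at 1 place, 117 to 113 bases before the start. The LDHA window holds it at 3 places, where forward and reverse matches that overlap count as 1, and the PGK1 window at 3 places. Windows of P4HA2 and SLC2A1 hold none, which says only that these letters are absent from this stretch. Promoters were matched for 34 of the 40 genes, and VEGFA, NDRG1, BNIP3L, SLC2A3, SLC16A1 and PFKFB2 were not matched. The core motif was found in 22 of these 34 windows (64.7%), against 57.9% of 10038 windows of genes tested here. It was in 2 of the 5 matched windows of genes called higher under the drug both without and with ascites, and in 17 of the 25 of genes called in neither. The consensus direct repeat bound by PPAR and RXR pairs (DR1) was searched on both strands in the same windows and was in 0 of the 34 and in 0.0171% of 35116 promoters. These counts are a description of letters in a short window.

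Total counts ranged from 11831093 to 18762759 per library, both in libraries with the drug, and libraries without it held between 12550494 and 14816993. The 40 genes took between 1.99% and 2.06% of the counts of a library. Of 10 serous carcinoma markers, the keratins were high, with KRT8 at 3005 CPM in control cells (CPM is the count scaled to a common library size, per 1e+06 counts). MECOM was counted too, with 538, 540 and 509 counts in the control libraries. Some other defining markers were at or near 0. PAX8 stood at 0.378 CPM in control cells, and WT1 and MUC16 had 15 and 10 counts over all 12 libraries. SOX17 had 0, which allows up to 0.0173 CPM for counting error only. EPCAM and CDH1, epithelial adhesion genes, stood at 27.6 and 18.6 CPM, and CDH1 was higher with the drug by an averaged log2 fold change of 1.60. Of 15 markers of blood, fibroblast, mesothelial and endothelial cells, PTPRC, CD3E, TYROBP, PPBP and PF4 had 0 counts. The globin genes HBA1, HBA2 and HBB had 94, 51 and 15 counts over all 12 libraries. The summed level of the 15 lay between 11.2 and 13.96 CPM in control and 12.3 and 13.5 with ascites. It was at or below 8.93 with bezafibrate (8.72 ± 0.216, SD, n = 3), and between 8.19 and 10.4 with both. COL1A1 and COL3A1 fell with the drug, and their part in the results below was not tested. The PPAR targets PDK4, ANGPTL4, PLIN2 and CPT1A were called higher in both drug comparisons (4 of 4). Combination replicate 3 lay at 22.4 on the second principal component of all genes, and the other 11 libraries between -9.84 and 4.37. The calls of the 15 genes given by library that leaving it out changed are named with those genes. In bulk RNA a change in the share of cells that express a gene cannot be told apart from a change in RNA per cell.

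**Figure D1:**
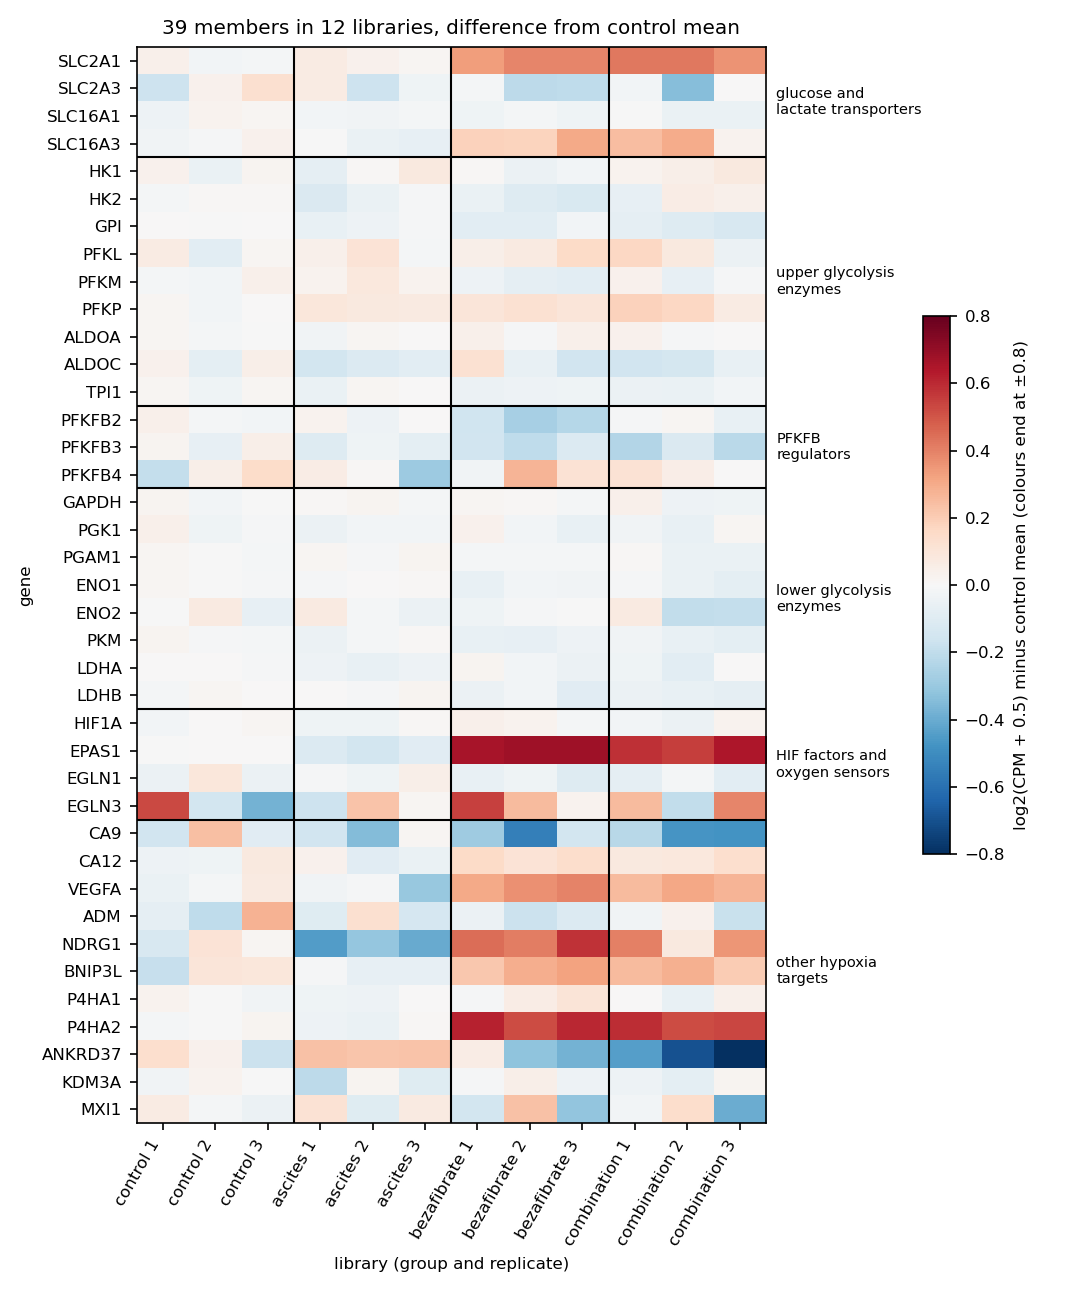
Rows are the 39 tested genes ordered by role and columns are the 12 libraries. Colour gives the log2(CPM + 0.5) of a library minus the mean of the 3 control libraries, and the rows of EPAS1, P4HA2, SLC2A1 and VEGFA are red in all 6 libraries with bezafibrate while the enzyme rows stay pale.

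Among the oxygen sensors and HIF subunits the change was in EPAS1. EPAS1 (ENSG00000116016.14, chr2:46293667-46386703, plus strand, in GENCODE 29) was counted at 225, 226 and 226 CPM in control, 209.5, 204 and 212 CPM with ascites, 357, 362 and 361 CPM with bezafibrate, and 339, 331 and 354 CPM with both. Every library with the drug was above every library without it. The log2 fold change was 0.67 (SE 0.031, edgeR adjusted p 1.72e-19) without ascites and 0.71 (SE 0.032, edgeR adjusted p 5.32e-20) with it, a rise of 1.60-fold and 1.64-fold. These comparisons share no library. HIF1A, the other main alpha subunit, had 242 ± 3.13 CPM in control and 245 ± 4.69 CPM with bezafibrate (SD, n = 3), and its averaged drug effect was 0.01 (95% interval -0.03 to 0.06). EGLN1, the main oxygen-sensing prolyl hydroxylase, had 75.8 ± 4.30 CPM in control and 72.3 ± 1.83 CPM with bezafibrate, an averaged drug effect of -0.06 that was not called. EGLN3, a hydroxylase that HIF itself induces, was near the limit of counting at 0.497 ± 0.343 CPM in control, and its interval of -0.33 to 1.03 for the averaged drug effect leaves its direction unresolved.

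Level per exon length put EPAS1 below HIF1A in control and above it with the drug. With lengths from GENCODE 29, EPAS1 stood at 43.7 ± 0.136 CPM per kb in control and HIF1A at 56.9 ± 0.735. With bezafibrate EPAS1 stood at 69.7 ± 0.511 and HIF1A at 57.6 ± 1.10, and with both at 66.1 ± 2.26 and 56.4 ± 1.60 CPM per kb (SD, n = 3). Using the median length of the protein-coding transcripts in place of all exons, HIF1A stood at 61.8 ± 0.798 in control, 62.6 ± 1.197 with bezafibrate and 61.2 ± 1.74 with both, while the EPAS1 values were the same, so the order within each group was the same under both lengths. The lengths that the submitters used are not given in the sources used here, so the size of the gap is approximate.

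**Figure D2:**
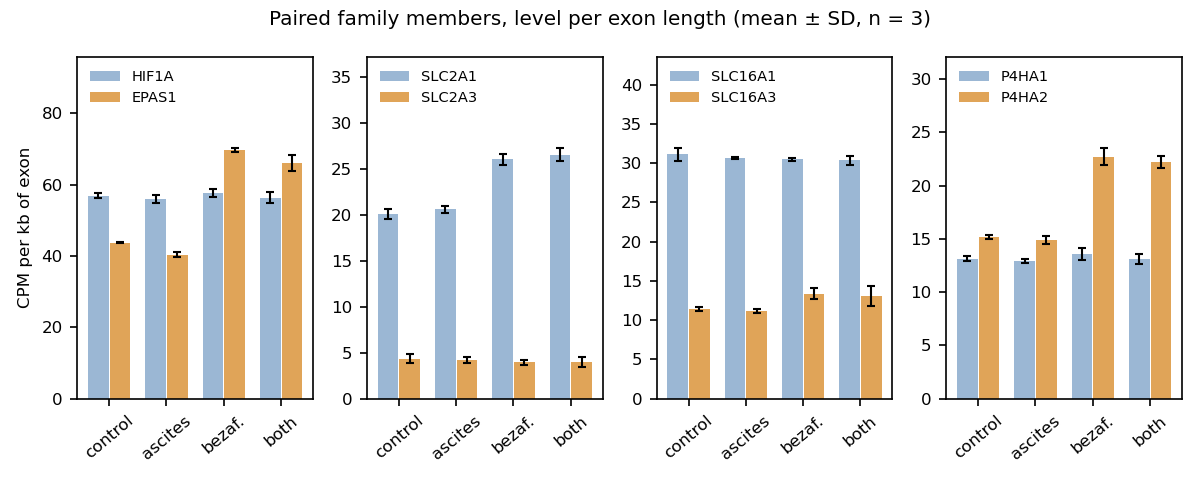
Bars give the mean level per exon length (CPM per kb, error bars SD, n = 3) of HIF1A with EPAS1, SLC2A1 with SLC2A3, SLC16A1 with SLC16A3, and P4HA1 with P4HA2 in the 4 groups. EPAS1 passes HIF1A in the 2 groups with bezafibrate, and in each of the other pairs 1 gene was called higher while its partner was not called.

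The hypoxia targets outside glycolysis held most of the other rises. Of the 11 tested, 5 were called higher without ascites and the same 5 with it, P4HA2, NDRG1, VEGFA, BNIP3L and CA12, where 10.1% and 10.5% of all genes were called higher. P4HA2 (ENSG00000072682.20), a catalytic subunit of collagen prolyl 4-hydroxylase, was at 55.8, 56.1 and 57.0 CPM in control, 54.7, 54.2 and 56.7 CPM with ascites, 86.3, 81.0 and 85.7 CPM with bezafibrate, and 85.0, 81.0 and 81.6 CPM with both. The libraries with the drug were all above those without it. P4HA2 rose by 0.58 on the log2 scale without ascites (SE 0.046, edgeR adjusted p 7.75e-13) and by 0.58 with it (SE 0.047, edgeR adjusted p 1.65e-12). Its paralogue P4HA1 had an averaged drug effect of 0.03 (95% interval -0.05 to 0.12), at 38.4 ± 0.689 CPM in control. Genes on the other strand overlap exons of P4HA2, SLC2A1 and VEGFA in GENCODE 29, and it is not known whether counting used strand. Genes on the same strand overlap exons of SLC2A1, SLC16A3, GPI, LDHB and PFKP, where counting by strand would not separate the reads. In both cases a share of the reads of the overlapping genes could be included.

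NDRG1 (ENSG00000104419.17), a stress and differentiation gene that hypoxia induces, rose with the drug in both comparisons. It was at 14.6, 17.3 and 16.2 CPM in control, 11.6, 12.8 and 11.99 CPM with ascites, 22.0, 21.4 and 24.0 CPM with bezafibrate, and 21.3, 16.9 and 20.5 CPM with both. The 3 ascites libraries were below all 3 control libraries, and combination replicate 2 fell within the control range. The log2 fold change under the drug was 0.49 (SE 0.087, edgeR adjusted p 4.17e-05) without ascites and 0.70 (SE 0.096, edgeR adjusted p 3.48e-07) with it. Their difference, the interaction, was 0.21 (95% interval -0.05 to 0.48) and was not called (edgeR adjusted p 0.999).

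VEGFA (ENSG00000112715.26), the main angiogenic growth factor under HIF control, was at 29.2, 29.9 and 31.8 CPM in control, 29.6, 30.1 and 24.4 CPM with ascites, 37.4, 39.2 and 40.1 CPM with bezafibrate, and 36.1, 37.7 and 36.7 CPM with both. The groups with and without the drug did not overlap, and ascites replicate 3 was the lowest of the 12 libraries. The log2 fold change was 0.36 (SE 0.066, edgeR adjusted p 5.40e-05) without ascites and 0.40 (SE 0.069, edgeR adjusted p 2.82e-05) with it. BNIP3L (ENSG00000104765.16), a mitophagy receptor also called NIX, was at 29.2, 35.6 and 35.5 CPM in control, 33.2, 31.9 and 31.8 CPM with ascites, 38.8, 40.9 and 41.8 CPM with bezafibrate, and 39.8, 40.8 and 38.4 CPM with both. Again no library with the drug fell among those without it. The changes of BNIP3L were 0.28 (SE 0.064, edgeR adjusted p 0.00133) and 0.30 (SE 0.066, edgeR adjusted p 0.000955). Its exons overlap those of PNMA2 on the other strand, which also rose with the drug (averaged effect 0.34, edgeR adjusted p 5.58e-06), so the value of BNIP3L is uncertain unless counting used strand.

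CA12, a membrane carbonic anhydrase, rose least of the 5. It was at 67.6, 68.0 and 73.5 CPM in control, 71.2, 65.3 and 67.2 CPM with ascites, 77.6, 75.2 and 76.9 CPM with bezafibrate, and 73.5, 73.8 and 76.6 CPM with both. Control replicate 3 reached the range of the combination. The log2 fold change of CA12 was 0.14 (edgeR adjusted p 0.0346) without ascites and 0.13 (edgeR adjusted p 0.0476) with it, and the call was lost in 8 and 17 of 20 alternatives. Without ascites these included the fits without control replicate 1 or 2 or any 1 of the bezafibrate libraries, and with ascites all fits without 1 library except those without control replicate 1 or ascites replicate 1. Averaged over both, CA12 stood at 0.14 (edgeR adjusted p 0.0017) and was called in all 19 alternatives. CA9, the carbonic anhydrase most used as a hypoxia marker, was low at 1.74 ± 0.342 CPM in control and 1.29 ± 0.247 CPM with bezafibrate, with an averaged drug effect of -0.37 (95% interval -0.78 to 0.04) that was not called. The remaining targets ADM, KDM3A and MXI1 had averaged drug effects of -0.07, 0.03 and -0.08 and were not called.

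ANKRD37, a short ankyrin repeat gene under HIF control, went the other way at very low counts. It had 19, 16 and 12 counts in the control libraries, 20, 18 and 21 with ascites, 20, 15 and 11 with bezafibrate, and 12, 6 and 5 with both. On the CPM scale all 3 combination libraries, from 0.422 to 0.704, were below all other libraries, of which bezafibrate replicate 3 was the lowest at 0.756. ANKRD37 fell with the drug in the presence of ascites by 1.32 on the log2 scale (SE 0.36, edgeR adjusted p 0.00648), and without ascites its change was -0.31 and was not called. Its averaged drug effect was -0.81 (edgeR adjusted p 0.00941), a call lost with DESeq2 (DESeq2 adjusted p 0.0574). UFSP2 overlaps ANKRD37 on the other strand.

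**Figure D3:**
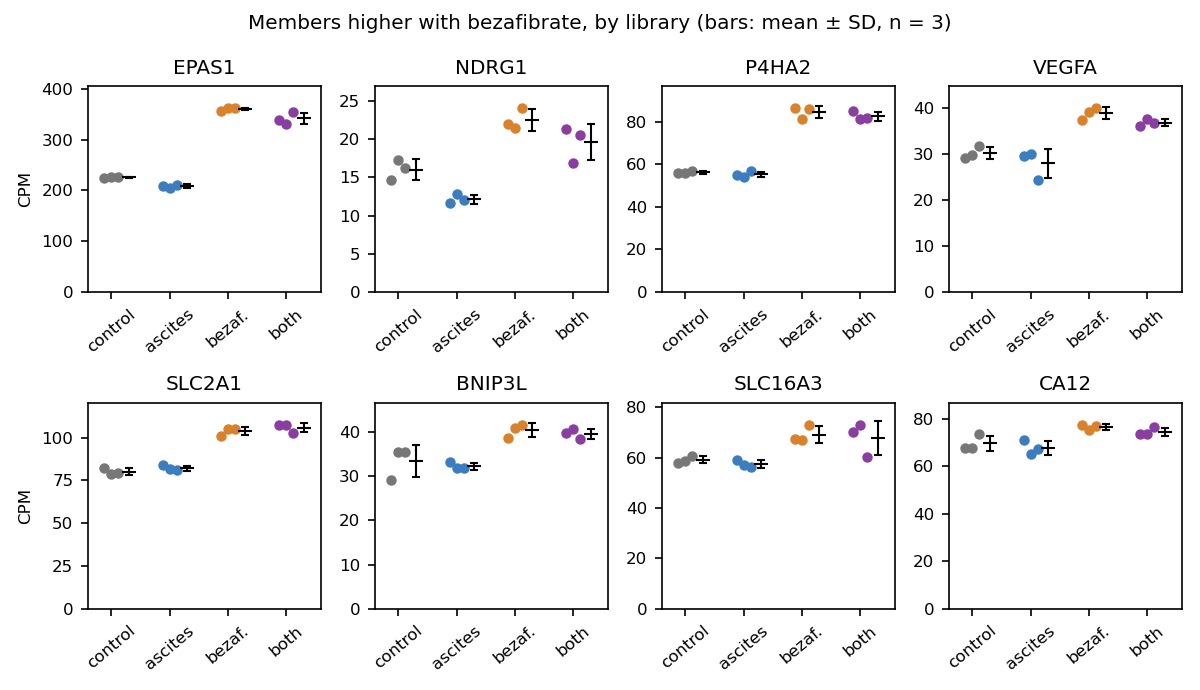
Each dot is the CPM of 1 library of the 8 genes called higher under bezafibrate both without and with ascites, and black bars give the mean and SD (n = 3). EPAS1, P4HA2, VEGFA, SLC2A1 and BNIP3L have no overlap between the 6 libraries with the drug and the 6 without it, while SLC16A3 has 1 combination library within the control range.

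The carriers of glucose and lactate changed in pairs of unlike members. SLC2A1 (ENSG00000117394.24, chr1:42925375-42959176, minus strand), which encodes the widespread glucose carrier GLUT1, was at 82.4, 78.8 and 79.2 CPM in control, 83.9, 81.9 and 80.9 CPM with ascites, 101, 105 and 105 CPM with bezafibrate, and 108, 107 and 103 CPM with both. All 6 libraries with the drug were above the other 6. SLC2A1 rose by 0.37 on the log2 scale without ascites (SE 0.042, edgeR adjusted p 4.28e-09) and by 0.37 with it (SE 0.042, edgeR adjusted p 9.05e-09). SLC2A3, the high-affinity carrier GLUT3, was at 17.1 ± 1.79 CPM in control and 15.4 ± 1.23 CPM with bezafibrate, and its averaged drug effect of -0.11 (95% interval -0.25 to 0.03) was not called. Its near-identical copy SLC2A14 had 18 counts in all 12 libraries against 2798 for SLC2A3.

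SLC16A3 (ENSG00000141526.18), the lactate exporter MCT4, was at 58.1, 58.8 and 60.7 CPM in control, 59.1, 57.0 and 56.4 CPM with ascites, 67.4, 67.1 and 73.2 CPM with bezafibrate, and 70.4, 72.9 and 60.4 CPM with both. Combination replicate 3 lay within the control range and above the ascites range. The log2 fold change was 0.22 (SE 0.055, edgeR adjusted p 0.00233) without ascites and 0.24 (SE 0.056, edgeR adjusted p 0.00138) with it. Its exons overlap those of CSNK1D on the other strand, which was not called in the averaged drug effect. SLC16A1, the carrier MCT1, stood at 145 ± 3.66 CPM in control and 142 ± 0.957 CPM with bezafibrate, with an averaged drug effect of -0.02 (95% interval -0.07 to 0.03). Per exon length SLC16A1 was the higher of both lactate carriers in control, at 31.1 ± 0.785 against 11.4 ± 0.260 CPM per kb, but with the median transcript length the gap was smaller (35.0 ± 0.884 against 28.7 ± 0.652 in control, and 34.3 ± 0.231 against 33.6 ± 1.66 with bezafibrate, where they did not differ beyond the SD). By exon length SLC2A1 stood above SLC2A3 at 20.1 ± 0.5004 against 4.36 ± 0.456.

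The PFKFB genes make the enzymes that form and break down fructose 2,6-bisphosphate, the activator of phosphofructokinase. PFKFB3 (ENSG00000170525.21), the form with the highest kinase activity, was at 119, 112 and 121 CPM in control, 109, 115 and 111 CPM with ascites, 106, 102 and 109 CPM with bezafibrate, and 100.1, 108 and 101 CPM with both. The 6 libraries with the drug were below the other 6, though the highest of them, bezafibrate replicate 3 at 109.2, lay just under ascites replicate 1 at 109.4. PFKFB3 fell by 0.16 on the log2 scale without ascites (SE 0.042, edgeR adjusted p 0.00619), a call lost without control replicate 3 or bezafibrate replicate 2 (largest adjusted p 0.0691), and with ascites its change of -0.12 was not called (edgeR adjusted p 0.0576). Averaged over both it was -0.14 (SE 0.030, edgeR adjusted p 0.0005). PFKFB2, the form known from heart, was at 46.0, 44.3 and 44.0 CPM in control, 45.6, 43.5 and 44.9 CPM with ascites, 40.1, 37.1 and 38.2 CPM with bezafibrate, and 44.4, 45.3 and 43.0 CPM with both. The 3 bezafibrate libraries were below all of the other 9. PFKFB2 fell by 0.22 on the log2 scale without ascites (SE 0.055, edgeR adjusted p 0.0028) and stood at -0.01 with it. The difference between these, the interaction, was 0.21 (95% interval 0.05 to 0.36) and was not called over all genes (unadjusted p 0.0116, edgeR adjusted p 0.999). The averaged drug effect of PFKFB2 was -0.12 (edgeR adjusted p 0.0196), a call lost in 5 of 19 alternatives, DESeq2 among them. PFKFB4 was low at 5.07 ± 0.647 CPM in control and was not called, and YOD1, which overlaps PFKFB2 on the other strand, was not called either.

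The changes of the main-chain enzymes were small. Of the 17, 1 was called without ascites (higher) and 0 with it, where 17.6% and 17.8% of all genes were called. In the averaged drug effect 4 were called (23.5%, against 28.3% of all genes), PFKP higher (5.88%, against 15%) and GPI, PKM and LDHB lower (17.6%, against 13.2%). With ascites 2 of the 17 had an unadjusted p under 0.05, against 28.2% of all genes, and DESeq2 called 1 of the 17, LDHB (lower, DESeq2 adjusted p 0.0309). Upper-quartile scaling lowered the drug effects of all genes by a median of 0.018. Under it GPI, PKM and LDHB were called lower without ascites, and GPI and LDHB with it. GPI was also called lower with ascites in the fit without combination replicate 1. The widest 95% intervals of the 17 for the averaged drug effect reached from -0.15 to 0.13. Summed over the 8 lower enzymes, the level was 15348 ± 147 CPM in control, 15261 ± 78.8 CPM with ascites, 15063 ± 87.2 CPM with bezafibrate and 14968 ± 306 CPM with both (SD, n = 3).

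PFKP (ENSG00000067057.18), the platelet-type phosphofructokinase, was at 318, 309 and 315 CPM in control, 334, 331 and 329.6 CPM with ascites, 336, 341 and 336 CPM with bezafibrate, and 357, 353 and 329 CPM with both. All 9 treated libraries lay above the 3 control libraries. PFKP rose by 0.11 without ascites (SE 0.031, edgeR adjusted p 0.0133), a call lost without control replicate 2 or bezafibrate replicate 2, and its change with ascites was 0.06 (edgeR adjusted p 0.183). Without combination replicate 3 the change of PFKP with ascites was 0.10 and was called (edgeR adjusted p 0.013), and its averaged ascites effect went from 0.06 (edgeR adjusted p 0.504), not called, to 0.08 (edgeR adjusted p 0.0386), called. The liver and muscle types, PFKL and PFKM, had averaged drug effects of 0.06 and -0.06 and were not called. Per exon length PFKP was the most abundant of the phosphofructokinases in control, at 83.1 ± 1.18 CPM per kb, ahead of PFKM at 32.4 ± 0.7996 and PFKL at 24.6 ± 1.303, an order that held with the median transcript length.

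GPI, which interconverts glucose and fructose phosphates, was at 718, 714 and 718 CPM in control, 688, 698 and 712 CPM with ascites, 675, 678 and 707 CPM with bezafibrate, and 682, 666 and 655 CPM with both. The control libraries were the highest of the 12. GPI fell by 0.06 on the log2 scale in the averaged drug effect (SE 0.019, edgeR adjusted p 0.01). LDHB, the heart-type lactate dehydrogenase, was at 1120, 1144 and 1134 CPM in control, 1135, 1125 and 1148 CPM with ascites, 1097, 1113 and 1063 CPM with bezafibrate, and 1095, 1086 and 1076 CPM with both. Its libraries with the drug were all below those without it, at an averaged effect of -0.06 (SE 0.018, edgeR adjusted p 0.0104). PKM, the pyruvate kinase of most dividing cells, was at 4366, 4284 and 4262 CPM in control, 4168, 4264 and 4339 CPM with ascites, 4136, 4111 and 4179 CPM with bezafibrate, and 4222, 4126 and 4074 CPM with both. Values of PKM with and without the drug overlapped, and the averaged effect was -0.05 (SE 0.016, edgeR adjusted p 0.0247). Without combination replicate 3 PKM was also called lower for bezafibrate against control. Its averaged call was lost in 5 of the 12 fits without 1 library, those without control replicate 1, ascites replicate 2 or 3, bezafibrate replicate 2 or combination replicate 2.

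The other 13 enzymes were not called in the averaged drug effect. LDHA, the lactate dehydrogenase under HIF control whose promoter is printed above, was at 1701 ± 8.84 CPM in control, 1648 ± 10.0 CPM with ascites, 1684 ± 42.3 CPM with bezafibrate and 1657 ± 50.6 CPM with both, an averaged drug effect of -0.00 (95% interval -0.04 to 0.03). PGK1 stood at 465 ± 12.5 CPM in control and 460.0 ± 15.2 CPM with bezafibrate (interval -0.05 to 0.04). GAPDH had 4888 ± 67.9 and 4890.4 ± 54.5 CPM (interval -0.04 to 0.03). HK1 and HK2, the hexokinases that trap glucose, had averaged drug effects of 0.01 and -0.01, and HK1 was the more abundant per exon length in control, at 46.6 ± 1.58 against 19.5 ± 0.159 CPM per kb. ALDOA and ENO1 stood far above their brain-enriched forms ALDOC and ENO2, at 456 and 821 against 25.9 and 9.83 CPM per kb. The reads of GAPDH, PGAM1, LDHB and TPI1 can be shared with processed copies elsewhere in the genome. The copy PGAM4 had 208 counts over all libraries against 146663 for PGAM1, and PGK2 had 0.

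**Figure D4:**
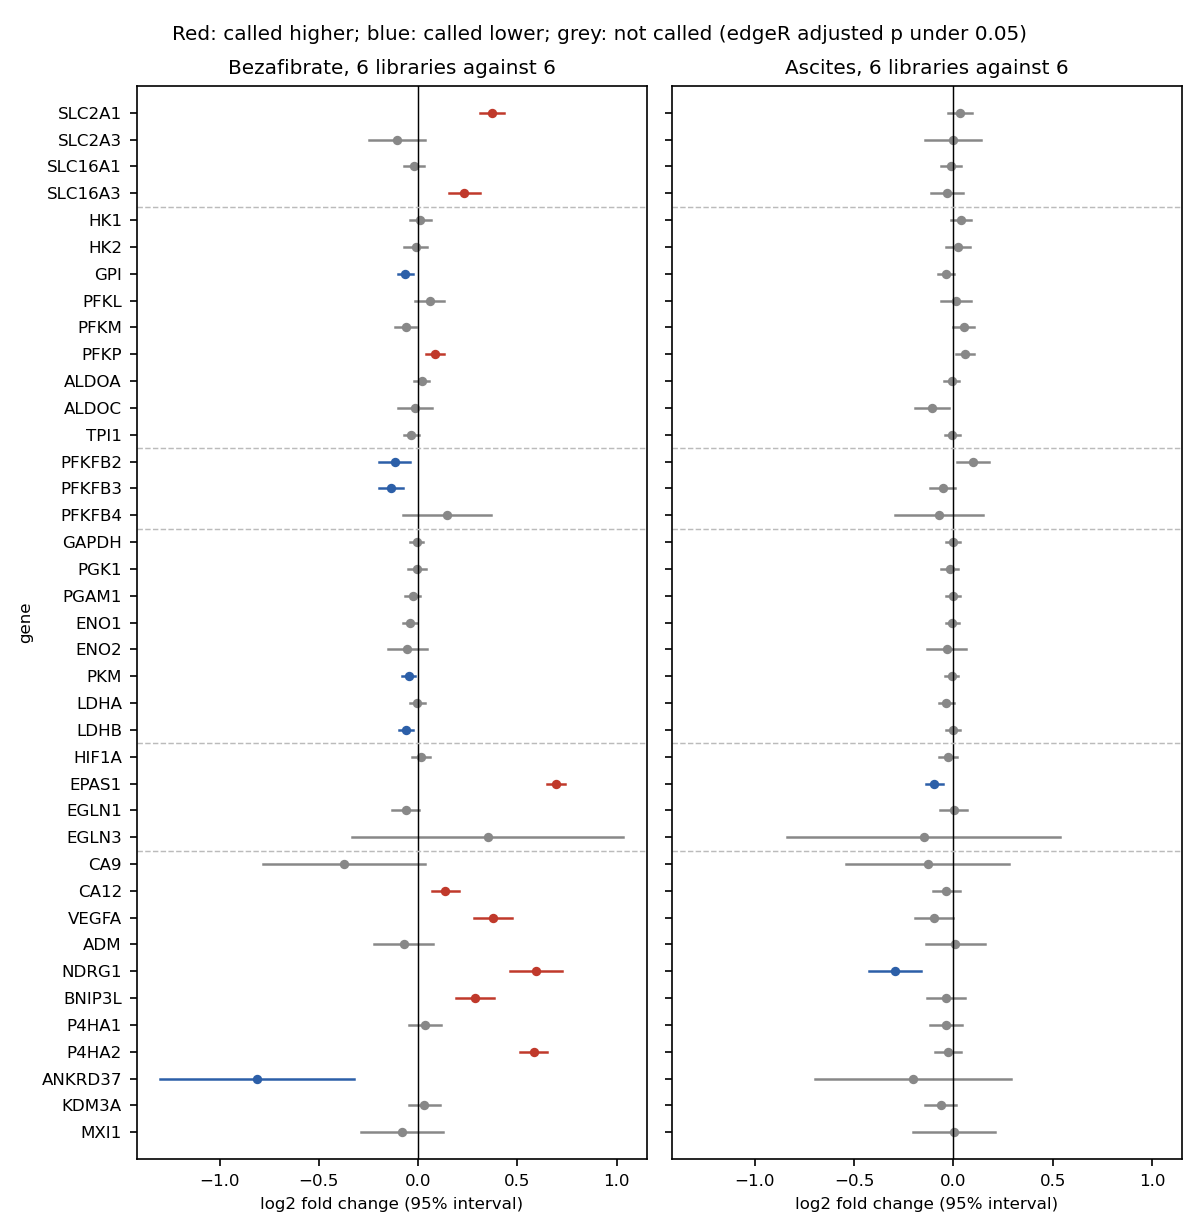
Points give the log2 fold change of each of the 39 genes with its 95% interval, on the left for bezafibrate (6 libraries against 6, averaged over ascites) and on the right for ascites (averaged over the drug), with dashed lines between roles. On the left 9 genes are called higher and 6 lower, on the right NDRG1 and EPAS1 are called lower, and the enzymes lie close to 0 on both sides.

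Over the 39 genes, 9 were called higher and 2 lower under bezafibrate without ascites. That is 23.1% and 5.13% of the genes, against 10.1% higher and 7.55% lower of all 12470 genes tested. With ascites 8 were called higher and 1 lower (20.5% and 2.56%), against 10.5% and 7.29% of all genes. The 8 called higher with ascites were all among the 9 called without it, and 7.95% of all genes were called higher in both. The median log2 fold change of the 39 was -0.02 without ascites and 0.01 with it, and that of all genes -0.00 in each. In the averaged drug effect 9 were higher and 6 lower, against 15% and 13.2% of all genes. Between the 6 libraries with the drug and the 6 without, 5 of the 39 were apart upwards and 2 downwards, against 9.01% and 6.32% of all genes. Upper-quartile scaling, which lowered all drug effects by a median of 0.018, gave 8 higher and 5 lower without ascites, 7 and 4 with it, and 9 and 9 in the averaged effect. Against control, the combination had 8 genes higher and 2 lower (GPI and PFKFB3), against 10.3% and 7.96% of all genes, and 8 higher and 6 lower under that scaling. It shares the control libraries with the comparison of bezafibrate with control. Calls of SLC16A3 (without combination replicate 1 or 2), NDRG1 (without control replicate 1 or combination replicate 1) and BNIP3L (without control replicate 1) in it were lost in single fits. The NDRG1 call was also lost with DESeq2 and at an adjusted p under 0.01.

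Ascites changed few of these genes. Against control, 0 of 39 were called by edgeR or DESeq2, where 0.0882% of all genes were called, and 3 had an unadjusted p under 0.05 (NDRG1 at -0.40, EPAS1 at -0.11 and PFKP at 0.08), against 6.01% of all genes. NDRG1 was called lower in that comparison in 3 of 20 alternatives: no filter, a fit of the 2 groups, and without combination replicate 3. Without combination replicate 3 its change was -0.40 (edgeR adjusted p 0.0492, against 0.185 with it). Over the 20 alternatives its adjusted p, by edgeR or DESeq2, ran from 0.0174 to 0.903. With the drug present 0 were called by either tool, where 0.0401% of all genes were higher and 0.0882% lower (0.128% in all), and 4 had an unadjusted p under 0.05 (PFKFB2 at 0.20, HK2 at 0.10, EPAS1 at -0.08 and NDRG1 at -0.19), against 4.79% of all genes. These comparisons share no library. Of the 39, 28 were below 0 without the drug and 30 with it, against 6373 and 6283 of all 12470 genes. Medians of the 39 were -0.02 in each, against -0.00 for all genes. The genes share libraries, so their directions are not independent. By library, the median log2 deviation of the 39 from the control mean was -0.00584 to 0.0031 in control and -0.027 to -0.00773 with ascites. It was -0.0227 to -0.00668 with bezafibrate. With both it was -0.00127, -0.0496 and 0.00101, so only combination replicate 2 lay below the bezafibrate libraries. Averaged over the drug, NDRG1 had an ascites effect of -0.29 (SE 0.065, edgeR adjusted p 0.0289) and EPAS1 of -0.10 (SE 0.022, edgeR adjusted p 0.0428), 2 of 39 called lower and 0 higher, where 0.233% and 0.0481% of all genes were (0.281% in all), and 6 of 39 had an unadjusted p under 0.05, against 6.97%. Between the 6 libraries with ascites and the 6 without, 0 of the 39 were apart, against 0.289% of all genes (0.104% upwards and 0.184% downwards). For EPAS1 the 3 ascites libraries were below the 3 control libraries and the 3 combination libraries below the 3 bezafibrate libraries, and the same held for NDRG1. The EPAS1 call was lost in 14 of 19 alternatives and the NDRG1 call in 8 of 18, the former in each fit without 1 library except that without combination replicate 3 (edgeR adjusted p from 0.00105 to 0.231 over the alternatives), the latter without control replicate 2 or 3, ascites replicate 1 or 3, bezafibrate replicate 1 or 3, or combination replicate 2 (0.00202 to 0.157).

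The interaction asked whether the response to 1 treatment depended on the other. None of the 39 genes was called by edgeR or DESeq2 (0 of 39, as 0 of all 12470 genes by edgeR), and 3 had an unadjusted p under 0.05, HK2 at 0.16, PFKFB2 at 0.21 and ANKRD37 at -1.01, against 3.57% of all genes. For EPAS1 the interaction was 0.04 (95% interval -0.05 to 0.13), for P4HA2 -0.00 (-0.14 to 0.13) and for SLC2A1 -0.01 (-0.13 to 0.11).

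Another 75 genes of the pathway, listed by function but with earlier results of these data known, gave 62 that could be tested. Under bezafibrate 12 were called higher and 3 lower without ascites (19.4% and 4.84%), and 11 higher and 2 lower with it (17.7% and 3.23%). Of all genes 10.1% were called higher and 7.55% lower without ascites, and 10.5% and 7.29% with it. Among those with the largest averaged effects that were called in both comparisons were PGM1, which links glycogen and glucose phosphates, at 0.67, PDK1, the HIF-induced inhibitor of pyruvate entry into mitochondria, at 0.42, LOXL2, a collagen crosslinking oxidase, at -0.35, PLOD2, a collagen lysyl hydroxylase, at 0.34, VHL, the ubiquitin ligase subunit that binds hydroxylated HIF, at 0.23, DDIT4, an mTORC1 inhibitor, at 0.23, and PYGB, a glycogen phosphorylase, at 0.21. Under ascites 0 of the 62 were called by edgeR without or with the drug, against 0.0882% and 0.128% of all genes, and 2 and 4 had an unadjusted p under 0.05.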

How the data were processed

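RNA from 12 libraries of CAOV3 cells was counted per gene. Per the submitters' processing notes, Trimmomatic 0.39, STAR 2.7.9a, RSEM 1.3.3, DESeq2 1.28.1 and GRCh38 were used. The deposited values are whole-number counts per gene. Strand setting, annotation version and any rounding of RSEM estimates are not given in the sources used here. Genes were filtered with filterByExpr (minimum count 10, minimum total 15), which kept 12470 of 19677 with at least 99.96% of each library's counts. They were scaled by TMM and tested with edgeR 4.0.16's quasi-likelihood test in R 4.3.3, 1 fit over 4 groups with 8 residual degrees of freedom. P-values were Benjamini-Hochberg adjusted over all genes tested, and a gene was called at an adjusted p under 0.05. Averaged effects compare the 6 libraries with a treatment with the 6 without it, weighting both backgrounds equally, and the interaction is the difference between the drug's effects with and without ascites. CPM use TMM library sizes, and SEs are the log2 fold change over the square root of F. The test was first tested on simulated data. DESeq2 1.42.0 was an alternative, beside other scalings, no filter, single pairs of groups, a replicate block, a stricter threshold, summed near-identical copies and each library left out. The 40 genes, the lists and the tests were chosen with earlier results of these data known. Values in every library are given for genes called in the averaged drug effect or a pairwise comparison, and of other pathway genes the 8 with the largest averaged drug effect among those called both without and with ascites were to be named, of which 1 is not reported here. Intervals are 95% and cover the spread between libraries, and limits from a count of 0 (3 counts) cover counting error only. Promoters are RefSeq's, on GRCh38.p14, and gene lengths and overlaps are from GENCODE 29.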

Additional observations from a re-analysis of the deposited data

Results flagged for a closer look

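ANKRD37 was singled out because the ascites effect had opposite directions without and with bezafibrate. All 3 ascites libraries lay above all 3 control libraries, while all 3 combination libraries lay below all 3 bezafibrate libraries. The difference between these ascites effects, tested as the interaction, was -1.01 on the log2 scale (SE 0.484, unadjusted p 0.0449, edgeR adjusted p 0.999) and did not pass the threshold over all genes. It rests on 5 to 21 counts per library, and 0.401% of all genes tested showed such opposite separations under ascites.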

How the results depend on the processing

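Over the 39 members that passed the filter, upper-quartile scaling gave 5 called lower for bezafibrate against control with a median of -0.0338, 4 for the combination against ascites (median -0.0127), 6 for the combination against control (median -0.0368), and a median of -0.0251 for the averaged drug effect. For the combination against ascites 2 were called lower with no filter and 2 by DESeq2. For ascites against control 1 was called lower with no filter and 1 in a fit of the 2 groups, NDRG1 in both. For the averaged ascites effect 1 was called lower by DESeq2, 1 with near-identical copies summed, 1 with the replicate block and 0 at an adjusted p under 0.01, where the averaged drug effect had 2 lower. The cause was not tested. Leaving out 1 library, members called higher and lower ranged over 7 to 9 and 1 to 3 for bezafibrate against control (median -0.0177 to 0.00677), 7 to 8 and 1 to 2 for the combination against ascites (-0.00246 to 0.0218), 6 to 8 and 2 to 3 for the combination against control (-0.0270 to -0.00820), 0 and 0 to 1 for ascites against control (-0.0241 to -0.0105), 9 and 4 to 8 for the averaged drug effect (-0.0182 to 0.00459), and 0 to 1 and 0 to 2 for the averaged ascites effect (-0.0225 to -0.0101), where 1 was called higher without combination replicate 3. The combination against bezafibrate and the interaction had 0 called throughout, with medians of -0.0279 to -0.00880 and -0.00573 to 0.0110. Of 120 single-gene results 94 stayed on 1 side of the threshold in all alternatives run, 14 lost and 12 gained a call in at least 1, and 0 changed direction among those called. The main fit called 47 of the 120, and 33 of these 47 kept the call in all alternatives. The correlation of deviations showed no pairing of libraries by replicate number. It ran from -0.14 to 0.06 over 18 same-numbered pairs and from -0.07 to 0.18 over 36 pairs with different numbers. Of 12 libraries, 1 matched its own number best. This cannot tell whether a number marked a shared day or culture, which the labels do not say. Depth limits BNIP3, EGLN3, ANKRD37 and CA9 most.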
